A study of Mus musculus with 24 samples.

Results

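Aminoacyl-tRNA synthetases are the enzymes that attach each amino acid to its tRNA before protein is made. The genes were taken by symbol from the deposited count table: 37 symbols were listed, 36 have a row, and the methionine enzyme, listed under both Mars and Mars1, has the row Mars. They make up 20 cytosolic and 16 mitochondrial enzymes among 23478 symbols. Symbols ending in 2 are nuclear genes for the mitochondrial enzymes, and the others, with the subunits Farsa and Farsb of the phenylalanine enzyme, are cytosolic. The cells were 4T1-T, a line of the mouse 4T1 breast cancer model. They carried an shRNA named shAsns-1 or shAsns-2, directed at the asparagine synthetase gene Asns, or shRenilla, whose name points to luciferase and which served as control. Per the labels, the cells were isolated from lung metastases or primary tumors, selected in 6-thioguanine (6TG) and kept in DMEM supplemented with non-essential amino acids. All groups share the cell line, an integrated shRNA, the selection and the medium. RNA was sequenced in 6 groups of 4 libraries, lettered A to D: lung shAsns-1, lung shAsns-2, lung shRenilla, tumor shAsns-1, tumor shAsns-2 and tumor shRenilla. Nothing in the labels tells whether a letter is a mouse, a culture or a preparation, and p-values therefore cover only how far these libraries scatter, which may be technical.

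As background, protein is made in the cytosol and, for a few respiratory chain subunits, inside mitochondria, and each compartment needs its own set of charged tRNAs. Most amino acids have separate genes for the cytosolic and the mitochondrial enzyme, while Gars (glycine) and Kars (lysine) supply both compartments. Several cytosolic enzymes sit together in the multisynthetase complex. When an amino acid runs short, uncharged tRNA activates the kinase GCN2, translation of the transcription factor ATF4 goes up, and ATF4 induces Asns, amino acid transporters and many cytosolic synthetase genes.

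Library totals ran from 8.48 M to 38 M counts (median 28.7 M, lowest in tumor shAsns-2 A). Asns went against the label shAsns-1: it averaged 194 ± 18.2 CPM (counts scaled to library size with TMM factors, mean ± SD, n = 4 libraries in every group) in lung shAsns-1, 44.6 ± 6.51 CPM in lung shAsns-2 and 63.6 ± 7.89 CPM in lung shRenilla. In tumor it averaged 170 ± 17.1 CPM in shAsns-1, 36.8 ± 10.3 CPM in shAsns-2 and 82.8 ± 15.9 CPM in shRenilla. Directions for the libraries labelled shAsns-1 are therefore directions between labels. Epithelial markers summed to 375 CPM or more in every library, and leukocyte, T cell, endothelial and alveolar or airway markers to 10.2 CPM or less. Fibroblast markers summed to 15.6 to 69.6 CPM per library, highest in lung shAsns-1 (34.2 to 69.6 CPM). Library lung shRenilla B stood apart from the other 3 of its group in several synthetases and in Rn45s, the ribosomal RNA precursor row, which had 266 CPM there and 1440 to 2180 CPM in the others. Counts of called synthetases that use lung shRenilla are given with and without it, and the other values of that group include it.

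RNA of the cytosolic enzymes was far more abundant than that of the mitochondrial ones. All levels given here are of RNA, and levels of protein were not looked at. Per kilobase of merged exon length, the mean level over the 24 libraries had a median of 25.2 CPM per kb over the 20 cytosolic genes and 2.36 CPM per kb over the 16 mitochondrial genes. Merged exons can be much longer than the longest transcript, as in Eprs (18102 and 5638 bases) and Lars2 (11089 and 3894), or equal to it, as in Mars2 (11294). The order of genes therefore depends on the length used. On this per-length scale the highest were Rars (arginine) at 121, Nars (asparagine) at 110, Gars at 81.7 and Dars (aspartate) at 81 CPM per kb. Cytosolic levels then ran through Kars, Hars (histidine), Farsb, Tars (threonine), Iars (isoleucine), Sars (serine), Eprs (glutamate and proline), Lars (leucine), Mars, Yars (tyrosine), Farsa, Qars (glutamine), Wars (tryptophan), Aars (alanine) and Vars (valine) down to Cars (cysteine) at 7.42 CPM per kb. Lars2, for leucine, was the highest mitochondrial row at 34.1 CPM per kb, followed by Yars2 at 15.5 and Rars2 at 14.4 CPM per kb. Nars2, Iars2, Hars2, Wars2, Tars2 and Mars2 lay between 7.31 and 2.02 CPM per kb, and Fars2, Cars2, Pars2, Ears2, Sars2, Vars2 and Aars2 between 1.95 and 0.276 CPM per kb. Counts limit these last: Aars2 had as few as 13 counts in a library, while no cytosolic gene had fewer than 462. Some rows may share reads. In GENCODE M21, Aars overlaps Exosc6 on the same strand over 1326 bases of exon, Iars2 overlaps Rab3gap2 on the opposite strand over 2034 bases, and Iars has a processed pseudogene, Gm4849, that matches 2209 of the 4426 bases of its transcript. For Lars2, 122 of the 3894 bases of its longest transcript match 2 other genes, 72 of them Gm15564, and its merged exons span 11089 bases. The search covered GENCODE M21 transcripts, where the symbol Rn45s has no gene. It therefore could not show whether Lars2 shares reads with ribosomal RNA. The part of shared reads in the level of Lars2 was not tested. The strand setting of the counting is not given in the sources used here.

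**Figure D1:**
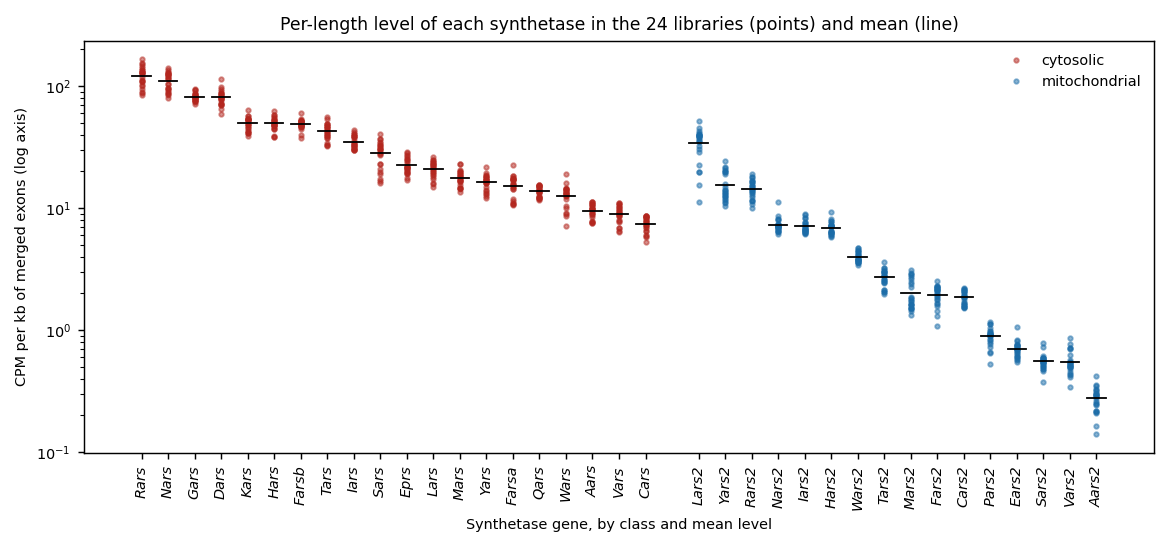
Level of each synthetase in CPM per kb of merged exons (log axis), one point a library and a line at the mean, cytosolic genes left and mitochondrial genes right. Cytosolic means span 7.42 to 121 CPM per kb and mitochondrial means 0.276 to 34.1 CPM per kb, with Lars2 above the other mitochondrial genes.

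Because many cytosolic synthetase genes are known ATF4 targets, promoter windows from 250 bases before to 50 bases after the transcript start were searched for TGATGNAA on both strands, the core of the C/EBP-ATF response element that ATF4 binds. RefSeq windows (GRCm38.p6) were at hand for 27 of the 36 genes. The motif was found in 5 of 13 cytosolic genes (38.5%) and 0 of 14 mitochondrial genes, against 1219 of 27025 genes (4.51%) and 1304 of 32851 windows (3.97%) overall. These stretches hold every match among the synthetases, read along the gene with the motif in capitals (TTGCATCA and TTTCATCA are the motif on the opposite strand):
Tars, chr15:11399641-11399698, minus strand: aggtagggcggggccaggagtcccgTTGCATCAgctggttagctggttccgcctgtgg
Yars, chr4:129189881-129189938, plus strand: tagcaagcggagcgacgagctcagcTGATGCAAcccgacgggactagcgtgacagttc
Iars, chr13:49682112-49682169, plus strand: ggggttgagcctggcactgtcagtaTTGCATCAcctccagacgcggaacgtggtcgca
Gars, chr6:55037946-55038003, plus strand: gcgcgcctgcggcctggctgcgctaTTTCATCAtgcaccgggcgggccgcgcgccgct
Aars, chr8:111033705-111033883, plus strand: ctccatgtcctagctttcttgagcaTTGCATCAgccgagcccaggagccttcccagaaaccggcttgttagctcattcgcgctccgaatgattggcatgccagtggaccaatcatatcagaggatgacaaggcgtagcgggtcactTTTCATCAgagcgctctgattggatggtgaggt
The matches begin 15 bases before the start in Tars and 30 before it in Gars, 4 after it in Yars and 8 after it in Iars, and in Aars 112 bases before and 10 after it. A match is a string of letters, not a shown binding site.

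The clearest difference was in tumor cells, where RNA of the cytosolic enzymes was lower in the libraries labelled shAsns-1 than in shRenilla. Of 20 cytosolic genes 0 rose and 14 fell (edgeR quasi-likelihood test, Benjamini-Hochberg adjusted p under 0.05 over 12625 genes), beside 16.2% of all genes tested called higher and 17.7% called lower. The median log2 fold change was -0.49 over the cytosolic genes and -0.01 over all genes. A mean group level was lowest in tumor shAsns-1 for 17 of the 20 cytosolic genes among the 6 groups, and was lowest there for 4 of the 16 mitochondrial genes. The share of all genes with their lowest mean in tumor shAsns-1 was not counted, so these counts have no background. In bulk RNA, less RNA per cell and fewer cells of a type cannot be told apart.

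Sars (GRCm38 chr3:108424865-108445209, minus strand), which charges serine tRNA, had the largest fall of the cytosolic genes. It had 89.6, 85.7, 102 and 82.6 CPM in tumor shAsns-1 A to D, against 155, 209, 117 and 166 CPM in tumor shRenilla. All 4 libraries of the first group lay below all 4 of the second, which were widely spread (log2 fold change -0.85 ± 0.18 SE, adjusted p = 0.00054). Farsa (chr8:84856989-84869257, plus strand), the catalytic subunit of the phenylalanine enzyme, had 48.7, 51.8, 49.5 and 47.8 CPM in tumor shAsns-1, against 72.4, 101, 78.9 and 76.5 CPM in shRenilla. The groups did not overlap (-0.73 ± 0.14, adjusted p = 1.71e-04), whereas its partner subunit Farsb averaged 132 CPM in tumor shAsns-1 and 137 CPM in tumor shRenilla and was not called (-0.06 ± 0.10, adjusted p = 0.697).

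Tars, the threonine enzyme whose promoter is shown above, had the smallest adjusted p of the cytosolic genes. It had 202, 190, 195 and 193 CPM in tumor shAsns-1, against 290, 330, 286 and 316 CPM in shRenilla (-0.65 ± 0.08, adjusted p = 9.84e-07). Both groups were tight and far apart. Wars, the tryptophan enzyme, had 29.4, 35.6, 31.5 and 34.3 CPM in tumor shAsns-1, against 45.8, 65.3, 44.6 and 48 CPM in shRenilla (-0.64 ± 0.17, adjusted p = 0.00582). Library B stood high in the shRenilla group, and the groups stayed apart without overlap.

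Lars, the leucine enzyme of the multisynthetase complex, had 84, 79.9, 92.2 and 86.2 CPM in tumor shAsns-1, against 123, 132, 121 and 142 CPM in shRenilla (-0.60 ± 0.09, adjusted p = 8.98e-06). Hars, the histidine enzyme, had 108, 92.6, 95 and 93.1 CPM in tumor shAsns-1, against 142, 153, 136 and 142 CPM in shRenilla (-0.56 ± 0.08, adjusted p = 7.27e-06). In each case the higher group began well above the top of the lower one.

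Nars, the enzyme for asparagine, the product of Asns, is given here for that link and after its values were seen. It had 379, 346, 376 and 366 CPM in tumor shAsns-1, against 503, 565, 450 and 554 CPM in shRenilla (-0.50 ± 0.11, adjusted p = 0.00151). Nars was thus lower in the libraries where Asns was higher. Eprs, the fused glutamate and proline enzyme of the complex, had 310, 317, 358 and 350 CPM in tumor shAsns-1, against 449, 456, 462 and 493 CPM in shRenilla (-0.48 ± 0.09, adjusted p = 2.56e-04). The other called genes were Rars, Yars, Mars, Cars, Kars and Iars, with log2 fold changes of -0.52 to -0.33. Among all 14, the libraries of the groups overlapped in Rars alone. These genes were called from the same values, so their separation is no further support. The share of all genes without overlap was not counted. The call of Cars was lost with thinned counts, and that of Kars without tumor shAsns-1 A, without tumor shRenilla B and with offsets for GC content and length.

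Of the 6 cytosolic genes not called, Vars (-0.32, adjusted p = 0.0749), Aars (-0.27, adjusted p = 0.06) and Qars (-0.18, adjusted p = 0.125) had estimates below 0, and Farsb, Gars and Dars lay between -0.06 and 0.02. Aars, Vars and Qars were called lower under 5, 4 and 3 of 17 alternatives. Limma gave 17 cytosolic genes in all, a count that stands without the share of all genes limma called. Within the multisynthetase complex, 6 of 8 enzymes fell (median -0.42), and outside it 8 of 12 (median -0.50). Of the 12 genes listed as ATF4 targets 10 fell (median -0.50), and of the 8 others 4 (median -0.34). The 5 genes with a promoter match split: Tars, Yars and Iars fell, while Gars and Aars were not called.

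**Figure D2:**
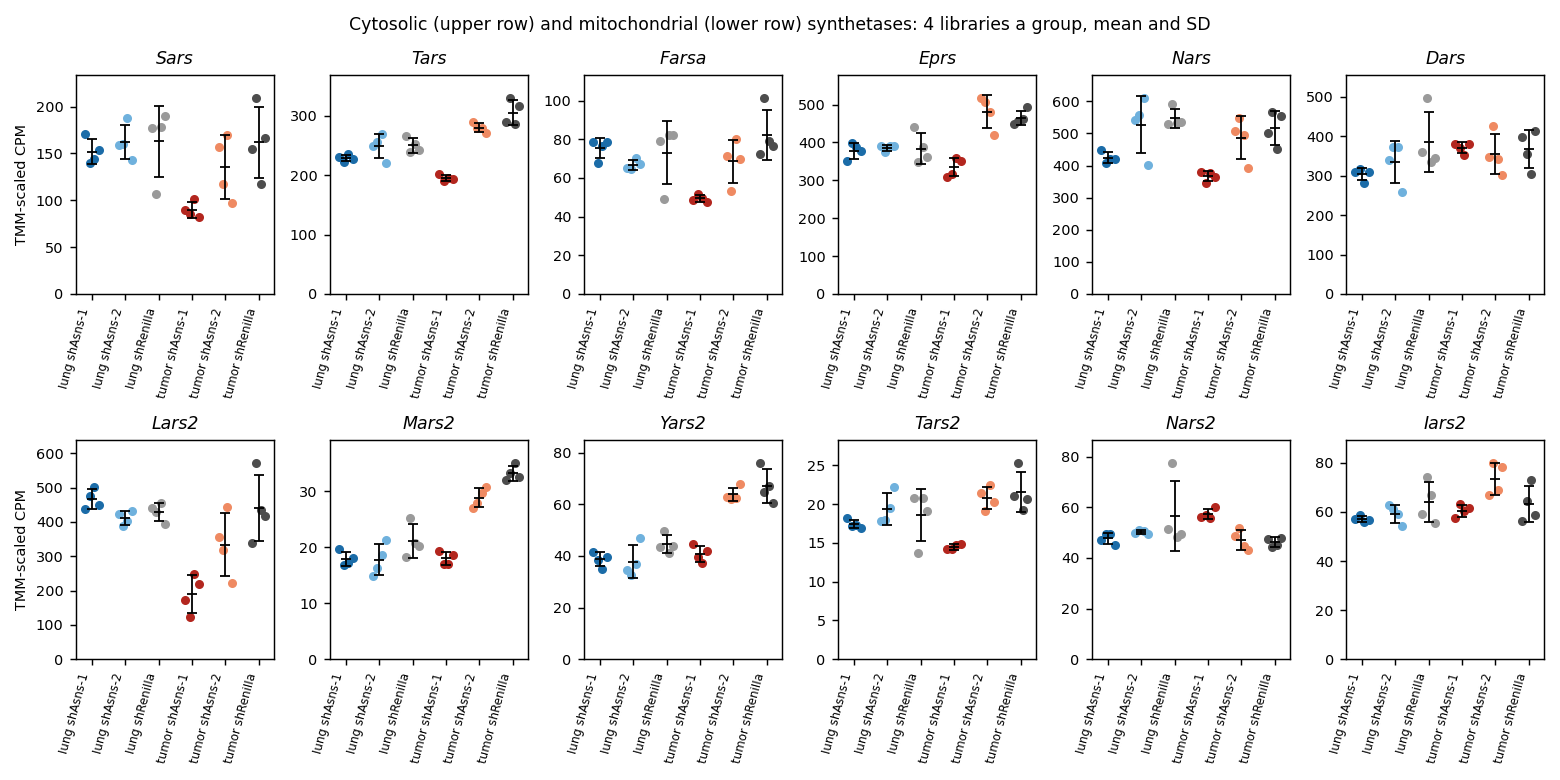
TMM-scaled CPM of 6 cytosolic (upper row) and 6 mitochondrial (lower row) synthetases in each library of the 6 groups, with mean and SD (n = 4). In Tars the tumor shAsns-1 libraries lie at 190 to 202 CPM, below every other library, whereas Mars2 and Yars2 are low in tumor shAsns-1 and in all lung groups.

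Of 16 mitochondrial genes in the same comparison, 1 rose and 6 fell, with a median log2 fold change of -0.18. This share lies nearer to that of all genes than the cytosolic share does. With no filter on low counts 4 mitochondrial genes were called, all of them lower. Lars2 (chr9:123366927-123462666, plus strand) fell furthest, with 171, 124, 248 and 218 CPM in tumor shAsns-1, against 337, 570, 434 and 418 CPM in shRenilla (-1.21 ± 0.18, adjusted p = 1.24e-05). Both groups were widely spread but did not overlap. Rn45s moved the same way, with 273 to 650 CPM in tumor shAsns-1, against 1370 to 2260 CPM in shRenilla (-1.68 ± 0.39, adjusted p = 0.00165). Its part in the level of Lars2 or of any other synthetase was not tested. Without Lars2 the mitochondrial median was again -0.18.

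Mars2 (chr1:55237177-55248470, plus strand), the mitochondrial methionine enzyme, had 19.4, 17, 17.1 and 18.6 CPM in tumor shAsns-1, against 32, 33.2, 35 and 32.5 CPM in shRenilla (-0.88 ± 0.11, adjusted p = 7.77e-07). Yars2 (chr16:16302965-16309640, plus strand), the mitochondrial tyrosine enzyme, had 44.6, 39.7, 37.4 and 41.8 CPM in tumor shAsns-1, against 75.8, 64.9, 67.1 and 60.4 CPM in shRenilla (-0.71 ± 0.11, adjusted p = 9.52e-06). Tars2 averaged 14.5 CPM in tumor shAsns-1 and 21.6 CPM in shRenilla (-0.57 ± 0.12, adjusted p = 5.06e-04). These 3 were clearly separated between the groups. Wars2 (-0.29, adjusted p = 0.0104) and Hars2 (-0.25, adjusted p = 0.0422) fell by less. The call of Wars2 was lost with no filter and with thinned counts, and that of Hars2 under 7 of 17 alternatives, among them leaving out tumor shAsns-1 B, C or D or tumor shRenilla B or C.

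Nars2 (chr7:96951505-97064758, plus strand), the mitochondrial asparagine enzyme, went the opposite way. It had 56.4, 57.1, 56 and 60.1 CPM in tumor shAsns-1, against 47.7, 44.4, 45.2 and 48 CPM in shRenilla (0.31 ± 0.11, adjusted p = 0.0326). All 4 libraries were higher, although the call was lost with no filter and without tumor shAsns-1 B or D or tumor shRenilla B or C (adjusted p = 5.62e-04 to 0.0782 over 17 alternatives). The other 9 mitochondrial genes, among them Ears2, Rars2 and Cars2, were not called, with log2 fold changes of -0.28 to 0.20.

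**Figure D3:**
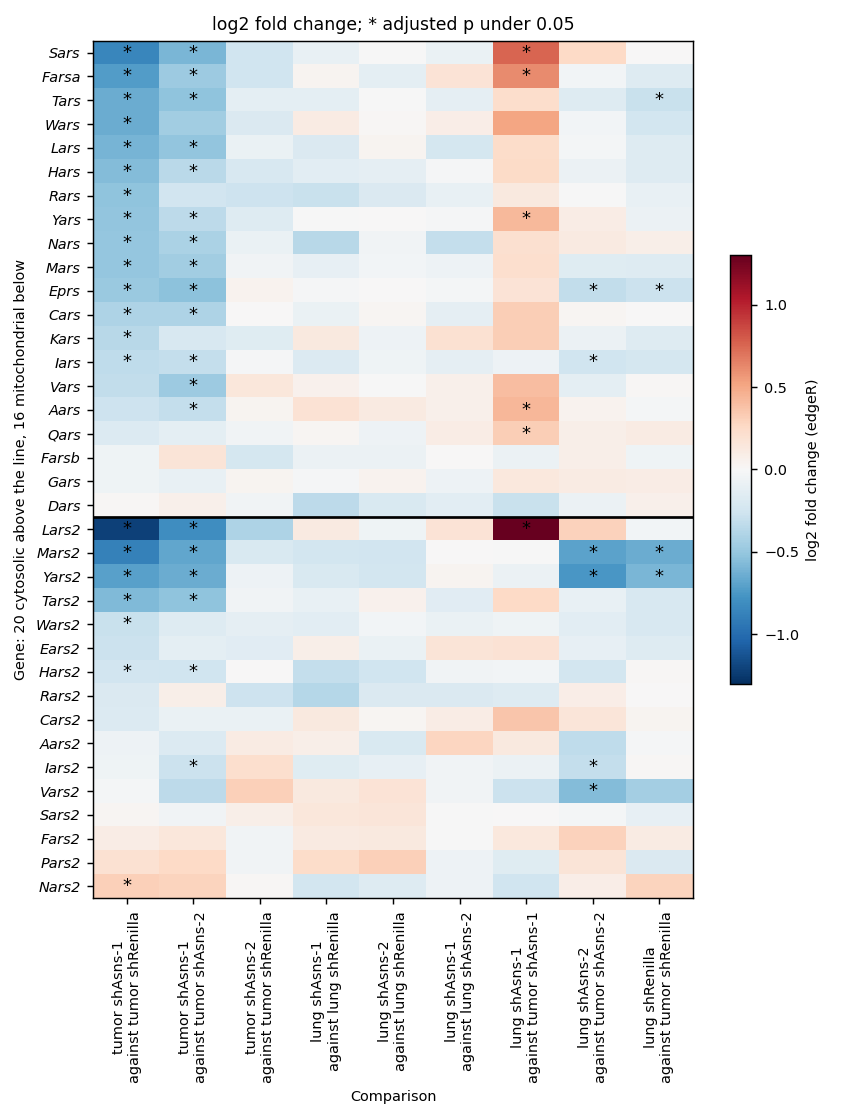
log2 fold change of each synthetase (rows, cytosolic above the black line) in the 9 comparisons (columns), with a star where the adjusted p is under 0.05. The stars gather in the 2 columns that set tumor shAsns-1 against the other tumor groups, and the 3 columns of lung hairpins hold none.

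The class medians show the same by library. Each gene's log2 CPM (prior count 2) was set against its mean over the 24 libraries, and the median was taken over a class. The cytosolic median lay at -0.33 to -0.27 in the 4 tumor shAsns-1 libraries, against 0 to 0.29 in tumor shRenilla. In the other groups it averaged -0.01 ± 0.03 (lung shAsns-1), 0.04 ± 0.06 (lung shAsns-2), 0.05 ± 0.14 (lung shRenilla) and 0.06 ± 0.12 (tumor shAsns-2); the group means of tumor shAsns-1 were thus the lowest. The nearest single library was lung shRenilla B at -0.16, which was also low in Rn45s. The mitochondrial median was -0.12 to -0.05 in tumor shAsns-1, against -0.01 to 0.21 in tumor shRenilla, and its values in lung shAsns-1, at -0.08 to -0.06, were as low. The cytosolic minus the mitochondrial median was -0.21 ± 0.04 in tumor shAsns-1 and between -0.04 and 0.07 in the mean of every other group, tumor shRenilla being at 0.03 ± 0.11. By library it ran from -0.24 to -0.15 in tumor shAsns-1. Single libraries came to the edge of that range in tumor shAsns-2 (lowest -0.15), lung shRenilla (lowest -0.15) and tumor shRenilla (lowest -0.13). Summed over the class, cytosolic synthetases made up 3030 ± 51.2 CPM in tumor shAsns-1 and 3980 ± 325 CPM in tumor shRenilla. Mitochondrial synthetases summed to 506 ± 57.9 CPM in tumor shAsns-1 and 812 ± 100 CPM in tumor shRenilla, a sum in which Lars2 was the largest row. Without Lars2, left out after its values were seen, they summed to 315 ± 4.65 CPM in tumor shAsns-1 and 372 ± 6.45 CPM in tumor shRenilla. That sum was as low in lung shAsns-1 (301 ± 8.61 CPM) and lung shAsns-2 (312 ± 4.6 CPM). It was higher in lung shRenilla (342 ± 27.7 CPM) and tumor shAsns-2 (364 ± 10.4 CPM).

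**Figure D4:**
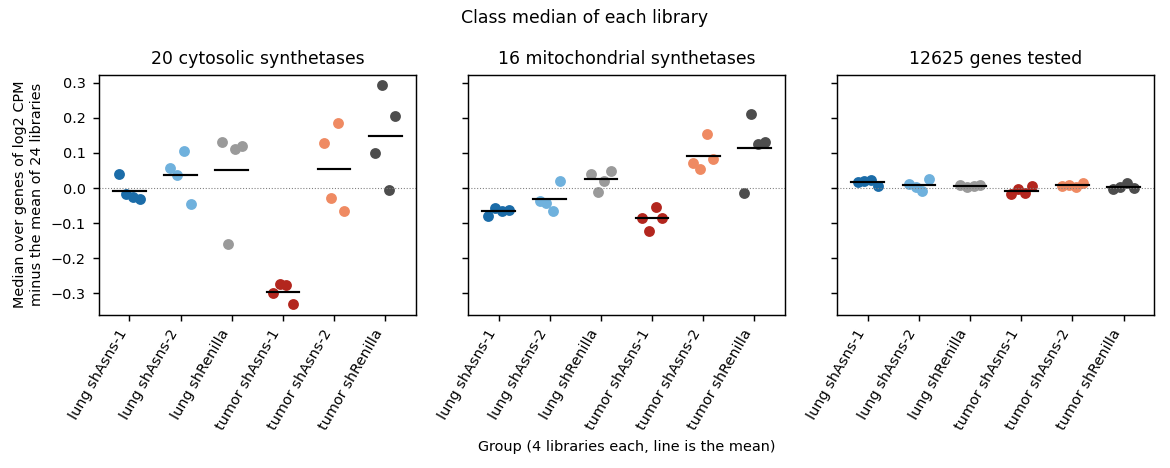
Median over the genes of a class of log2 CPM minus each gene's mean over 24 libraries, one point a library and a line at the group mean, for cytosolic synthetases, mitochondrial synthetases and all genes tested. The 4 tumor shAsns-1 libraries lie at -0.33 to -0.27 in the cytosolic panel, next to lung shRenilla B at -0.16, and the medians of all genes stay between -0.02 and 0.02.

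Enzymes of both compartments for the same amino acid could be set against each other in 17 pairs within each library. Between tumor shAsns-1 and tumor shRenilla the log2 ratio of the mitochondrial to the cytosolic enzyme was higher in 14 pairs and lower in 3 (median difference 0.28). The ratio of Sars2 to Sars differed by 0.85, that of Fars2 to Farsa by 0.82 and that of Nars2 to Nars by 0.80. The ratio of Fars2 to Farsb, the other cytosolic subunit of the phenylalanine enzyme, differed by only 0.15, with overlapping groups. The asparagine pair had a log2 ratio of -2.67 ± 0.09 in tumor shAsns-1 and -3.48 ± 0.15 in tumor shRenilla, without overlap. The 3 pairs that went the other way were those of leucine (-0.63), methionine (-0.38) and tyrosine (-0.22), whose mitochondrial members fell more than the cytosolic ones. A higher ratio in most pairs was not particular to tumor shAsns-1. In tumor shAsns-2 against tumor shRenilla 11 pairs were higher and 5 lower (median 0.09). In lung shAsns-1 against lung shRenilla 11 were higher and 6 lower (median 0.06). In lung against tumor shRenilla 12 were higher and 5 lower (median 0.1). In lung shAsns-2 against lung shRenilla 7 were higher and 10 lower (median -0.05). Pairs share libraries and, for Eprs and Fars2, a gene, so they are not independent.

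**Figure D5:**
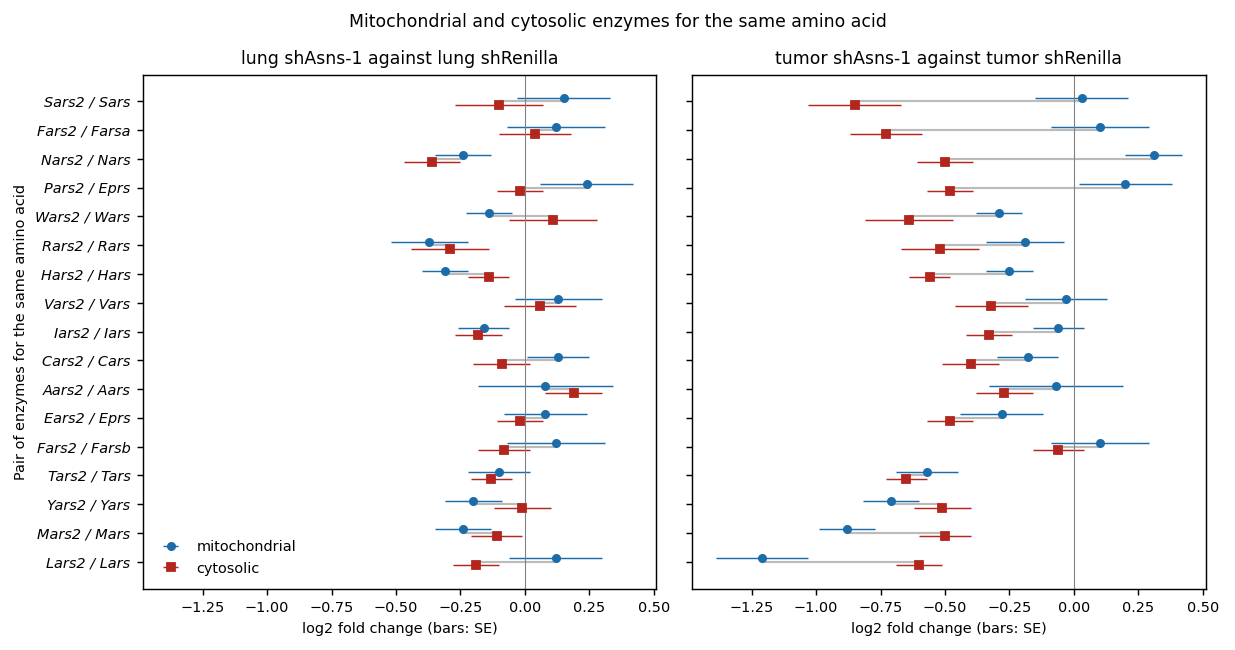
log2 fold change with SE of the mitochondrial (blue circle) and cytosolic (red square) enzyme of each amino acid, joined by a line, for lung shAsns-1 against lung shRenilla (left) and tumor shAsns-1 against tumor shRenilla (right). In tumor the cytosolic squares lie left of the mitochondrial circles in 14 of 17 pairs, and in lung, where no gene was called, estimates run from -0.36 to 0.19 (cytosolic) and from -0.37 to 0.24 (mitochondrial).

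Partner genes of the synthetases were mostly not called in this comparison, in which, as given above, 16.2% of all genes were called higher and 17.7% lower. Of 14 cytosolic partners, among them the complex scaffolds Aimp1, Aimp2 and Eef1e1, 0 rose and 1 fell: Eef1d, an exchange factor of the elongation factor that brings charged tRNA to the ribosome, averaged 188 ± 37.8 CPM in tumor shAsns-1 and 320 ± 28.4 CPM in tumor shRenilla (-0.77 ± 0.16, adjusted p = 4.18e-04). Of 9 mitochondrial partners 2 fell, Gfm2, a ribosome recycling factor, at 8.65 ± 0.731 CPM in tumor shAsns-1 and 15.7 ± 0.682 CPM in tumor shRenilla (-0.86 ± 0.12, adjusted p = 3.84e-06), and the elongation factor gene Gfm1 (-0.28, adjusted p = 0.0127). Of 8 other genes of the ATF4 response, the stress-induced regulator Nupr1 (1.15 ± 0.20) and Ddit3 (0.56 ± 0.18) rose, and Atf4 itself fell (-0.33 ± 0.12, adjusted p = 0.0311). The other 5 were not called. Epithelial markers moved with the comparison too: the 5 genes summed to 443 to 587 CPM in tumor shAsns-1, against 665 to 821 CPM in shRenilla, and 3 of them fell (Krt14 by 3.17, Cdh1 by 2.64 and Epcam by 2.00 on the log2 scale). The other 2 were not called, Krt8 at 206 CPM in tumor shAsns-1 and 174 CPM in shRenilla, and Krt18 at 244 CPM in tumor shAsns-1 and 233 CPM in shRenilla. Fibroblast markers summed to 23.9 to 32.3 CPM in tumor shAsns-1, against 15.6 to 18 CPM in shRenilla, and 1 of 7 was at 0 in every tumor shAsns-1 library. That sum is nearly all Pdgfra, which rose (27.5 CPM in tumor shAsns-1 and 15.9 CPM in shRenilla), and of the 4 fibroblast markers tested 2 had estimates above 0 and 2 below. The part of these markers in the result was not tested.

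Against tumor shAsns-2 in place of shRenilla, the libraries labelled shAsns-1 again had lower synthetase levels. Of 20 cytosolic genes 0 rose and 13 fell (median -0.38), and of 16 mitochondrial genes 0 rose and 6 fell (median -0.18), beside 12.1% of all genes called higher and 15% called lower. The cytosolic count was 8 without tumor shAsns-2 A (the shallowest library) or C, which also ended the call of Sars, and it was 9 without tumor shAsns-1 D. The fall was led by Sars (-0.59 ± 0.18, adjusted p = 0.0141), Eprs (-0.53 ± 0.09, adjusted p = 1.22e-04) and Tars (-0.52 ± 0.08, adjusted p = 3.1e-05). Among the genes of mitochondrial enzymes it was led by Lars2 (-0.81), Mars2 (-0.68) and Yars2 (-0.64). Both comparisons use the same tumor shAsns-1 libraries, so the second is no independent repeat of the first.

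In tumor shAsns-2, where Asns was lower, no synthetase was called against shRenilla. In this comparison 0.0396% of all genes were called higher and 0.0238% lower by edgeR, with 508 and 385 genes at an unadjusted p under 0.05, and DESeq2 and limma called none of the 36 either. The cytosolic median was -0.09 and the mitochondrial median -0.05, with single estimates of -0.27 to 0.15 and -0.40 to 0.31. Nars averaged 486 ± 67.1 CPM in tumor shAsns-2 and 518 ± 52.8 CPM in tumor shRenilla (-0.09 ± 0.11, adjusted p = 0.9).

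In lung cells no synthetase was called between hairpins. For lung shAsns-1 against lung shRenilla, where edgeR called 0.0713% of all genes higher and 0.135% lower and put 778 and 887 at an unadjusted p under 0.05, the cytosolic median was -0.08 and the mitochondrial median -0.01. The lowest estimates were those of Rars2 (-0.37, adjusted p = 0.323), Nars (-0.36 ± 0.11, adjusted p = 0.244) and Dars (-0.34, adjusted p = 0.308). Nars had 449, 408, 421 and 421 CPM in lung shAsns-1, against 530, 593, 532 and 534 CPM in lung shRenilla. These groups did not overlap, yet the difference did not pass the adjustment over all genes. DESeq2 called no synthetase there, and limma with library weights called 2 cytosolic and 1 mitochondrial gene lower. The share of all genes that limma called is not given here, and the shares above are those of edgeR.

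For lung shAsns-2 against lung shRenilla, 0% of all genes were called in either direction by edgeR, with 372 higher and 696 lower at an unadjusted p under 0.05. The medians were -0.02 for cytosolic and -0.08 for mitochondrial genes, DESeq2 called 0, and limma called 2 and 4 of them. For lung shAsns-1 against lung shAsns-2, edgeR called 0.143% of all genes higher and 0.119% lower, with 438 and 269 at an unadjusted p under 0.05. The medians were -0.05 and -0.03, DESeq2 called 0 synthetases, and limma called 5 and 1 lower. Limma's counts again stand without the share of all genes it called, so they cannot be set against the shares of edgeR. Leaving out lung shRenilla B kept the count of called synthetases at 0 in both comparisons with lung shRenilla.

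Between lung and tumor cells with the control hairpin, 4 synthetases were called, all lower in lung. In this comparison 12% of all genes were called higher in lung and 9.82% lower, and the share of synthetases called lower was close to that of all genes. Of the cytosolic genes 0 rose and 2 fell, Tars and Eprs, and of the mitochondrial genes 0 rose and 2 fell, Mars2 and Yars2. Tars had 266, 239, 253 and 243 CPM in lung shRenilla, against 290, 330, 286 and 316 CPM in tumor shRenilla (-0.29 ± 0.08, adjusted p = 0.0114). Eprs had 440, 347, 387 and 361 CPM in lung, against 449, 456, 462 and 493 CPM in tumor (-0.28 ± 0.09, adjusted p = 0.0302). Neither gene overlapped between the groups, but in Eprs the gap was narrow. Both calls were lost with no filter on low counts and with only the 2 groups in the fit, and that of Eprs also without lung shRenilla B or D or tumor shRenilla D. Without lung shRenilla B the counts of called genes were again 2 and 2. The 2 cytosolic genes were then not the same, since Eprs was not called.

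The mitochondrial pair was further apart. Mars2 had 18.3, 25.3, 20.7 and 20.2 CPM in lung shRenilla, against 32, 33.2, 35 and 32.5 CPM in tumor shRenilla (-0.65 ± 0.11, adjusted p = 7.1e-05). Yars2 had 43.6, 49.5, 41.1 and 43.9 CPM in lung, against 75.8, 64.9, 67.1 and 60.4 CPM in tumor (-0.59 ± 0.10, adjusted p = 1.43e-04). In both genes all 4 lung libraries lay below all 4 tumor libraries, and both calls held under each alternative run. Cell type markers moved in this comparison as well: Cdh1 (-2.76), Krt14 (-2.61) and Epcam (-1.91) fell in lung. The other 2 epithelial markers were not called, Krt8 at 182 CPM in lung and 174 CPM in tumor, and Krt18 at 294 and 233 CPM. Of 4 fibroblast markers tested Dcn (2.18) and Pdgfra (1.05) rose, and of 3 leukocyte markers Lyz2 (2.23). Dcn and Lyz2 were low even in lung shRenilla, at 1.41 and 1.46 CPM. The part of these markers was not tested.

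With shAsns-2 the same pair was lower in lung. Beside 10.1% of all genes called higher in lung and 10.9% lower, 2 cytosolic genes fell, Eprs (-0.32) and Iars (-0.26), and 4 mitochondrial genes fell: Yars2 (-0.76 ± 0.11), Mars2 (-0.70 ± 0.11), Vars2 (-0.56 ± 0.17) and Iars2 (-0.31 ± 0.10). With only these 2 groups in the fit 0 cytosolic and 2 mitochondrial genes were called, and 2 mitochondrial genes without tumor shAsns-2 D. Leaving out tumor shAsns-2 A, B or C or lung shAsns-2 B or C left 1 cytosolic gene. Mars2 averaged 17.8 ± 2.78 CPM in lung shAsns-2 and 28.8 ± 1.67 CPM in tumor shAsns-2. Of the 9 mitochondrial partners, Gfm2 alone was called in lung against tumor with shAsns-2 (-0.58), and with shRenilla Gfm2 fell (-0.46) and Mtfmt, which formylates the initiator tRNA, rose (0.31). With shAsns-2 Cdh1 (-2.83), Epcam (-2.59) and Krt14 (-2.11) again fell in lung, and Pdgfra (0.46) and Lyz2 (2.29) rose. Lyz2 had 1.26 CPM in lung shAsns-2. The other 2 epithelial markers were not called, Krt8 at 223 CPM in lung and 217 CPM in tumor, and Krt18 at 335 and 274 CPM.

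Between the libraries labelled shAsns-1 the direction turned. In lung 5 cytosolic genes rose and 0 fell against tumor: Sars (0.76 ± 0.18, adjusted p = 0.00837), Farsa (0.61 ± 0.14, adjusted p = 0.00675), Aars (0.43), Yars (0.42) and Qars (0.32), beside 6% of all genes called higher and 2.54% called lower. Of the mitochondrial genes Lars2 rose (1.29 ± 0.18, adjusted p = 7.7e-05), at 465 ± 29.1 CPM in lung shAsns-1 and 190 ± 54.4 CPM in tumor shAsns-1. Rn45s lay the same way, at 2410 ± 469 CPM in lung and 524 ± 171 CPM in tumor. Of 4 fibroblast markers tested 3 rose, Col3a1 (6.59), Dcn (2.54) and Col1a2 (2.47), as did the leukocyte gene Lyz2 (3.53). Each had 3.98 CPM or less on average in lung shAsns-1. Of 5 epithelial markers Epcam and Cdh1 fell and 3 were not called. Krt14 averaged 7.84 CPM in lung and 5.66 CPM in tumor, Krt8 174 and 206 CPM, and Krt18 224 and 244 CPM. The part of these markers was not tested. The cytosolic count was unsteady: it was 2 without tumor shAsns-1 D, 3 without tumor shAsns-1 A or C or lung shAsns-1 A, C or D, 3 with offsets for GC content and gene length, and 14 higher and 1 lower with only the 2 groups in the fit. The 6% and 2.54% above belong to the main fit, and the shares of all genes called in these other runs are not given here. Mars2 did not rise, with 17.9 ± 1.25 CPM in lung shAsns-1 and 18 ± 1.18 CPM in tumor shAsns-1.

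The difference itself was tested as the lung effect minus the tumor effect of the label shAsns-1 against shRenilla. It was above 0 for 10 cytosolic genes and below 0 for none, and above 0 for 3 mitochondrial genes and below 0 for 1, beside 6.96% and 7.27% of all genes called. The 10 were Farsa (0.78 ± 0.19, adjusted p = 0.00729), Wars (0.75), Sars (0.75), Tars (0.52 ± 0.12, adjusted p = 0.00313), Yars, Kars, Aars, Eprs, Hars and Lars. The mitochondrial genes were Lars2 (1.32 ± 0.25), Mars2 (0.64 ± 0.15) and Yars2 (0.51 ± 0.15), and, in the other direction, Nars2 (-0.55 ± 0.16, adjusted p = 0.0181). Farsa and Tars kept their calls under all 25 alternatives, whereas Sars, Wars, Kars and Aars lost theirs under 12 to 19 of them. The cytosolic count was 5 without lung shRenilla B, 5 without tumor shAsns-1 A or D, lung shAsns-1 A, C or D or tumor shRenilla B, 6 without tumor shRenilla A or D, and 2 with no filter on low counts, while the mitochondrial count stayed at 4 without that library. For shAsns-2 the same difference was called for 0% of all genes in each direction (121 above 0 and 478 below at an unadjusted p under 0.05), and for no synthetase by edgeR, DESeq2 or limma.

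The order of the 6 groups is given for a few of the genes that fell, chosen after their values were seen. In Tars the groups ran, by mean, from 195 ± 4.81 CPM in tumor shAsns-1 through lung shAsns-1 (229 ± 5.06), lung shAsns-2 (249 ± 20.2) and lung shRenilla (250 ± 12) to tumor shAsns-2 (280 ± 7.75) and tumor shRenilla (305 ± 21.1 CPM). The libraries of neighbouring groups overlapped within lung and between tumor shAsns-2 and tumor shRenilla, and tumor shAsns-1 lay apart below. Sars differed from this in that the lung groups, with means of 152 to 163 CPM, lay at the level of tumor shRenilla (162 ± 38 CPM), above tumor shAsns-1 (89.8 ± 8.31 CPM), and Lars2 did likewise, with lung means of 411 to 465 CPM. In Yars2 lung shAsns-2 (37.7 ± 6.47), lung shAsns-1 (38.7 ± 2.72), tumor shAsns-1 (40.9 ± 3.06) and lung shRenilla (44.5 ± 3.54 CPM) formed a low set whose neighbours overlapped, and tumor shAsns-2 (63.8 ± 2.69) and tumor shRenilla (67 ± 6.49 CPM) a high set. Mars2 divided the groups in the same way, with means of 17.8 to 21.1 CPM in the low set and 28.8 and 33.2 CPM in tumor shAsns-2 and tumor shRenilla. Cytosolic Iars had 168 ± 7.15 CPM in tumor shAsns-1 and lung means of 160 to 181 CPM, against 209 ± 10.3 CPM in tumor shAsns-2 and 212 ± 12.5 CPM in tumor shRenilla. Gfm2 divided the groups as Mars2 did, at 8.65 to 11.4 CPM and at 15.9 and 15.7 CPM. The epithelial adhesion gene Cdh1 showed the same split, with means of 20.3 to 36.4 CPM in the 4 low groups, 244 ± 48 CPM in tumor shAsns-2 and 226 ± 57.5 CPM in tumor shRenilla. Whether these genes are tied to one another was not tested.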

How the data were processed

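The deposited table holds raw counts per gene symbol for 24 libraries; per the submitters' processing notes it was made with Bowtie2 and HTSeq on mm10, and the versions, annotation and strand setting are not given in the sources used here. Per the labels, RNA was isolated with Trizol and libraries were made with the NuGEN Ovation RNAseq V2 kit. No 2 libraries of a group were duplicates (lowest chi-square per degree of freedom 4.74 over 36 pairs).

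The deposited counts went into edgeR 4.0.16 (R 4.3.3; quasi-likelihood F test with robust dispersion, TMM scaling, filterByExpr, 1 mean per group over all 24 libraries). This kept 12625 genes and all 36 synthetases, with a biological coefficient of variation of 14.9%. P-values were adjusted by Benjamini-Hochberg within a comparison over all genes tested, and genes were called under 0.05. Alternatives were DESeq2 1.42.0, limma 3.58.1 with library weights, other scaling, no filter, only the compared groups, the replicate letter as a block, offsets for GC content and length, thinned counts, 2 far libraries left out, and each library left out in turn. The class without Lars2 and the values of Rn45s were added after the data were seen. Deviations from group means correlated with a median r of 0.01 over 60 same-letter pairs (-0.41 to 0.46) and 0 over 180 others (-0.39 to 0.58). These pairs pool all combinations of groups. A pairing by letter of lung and tumor libraries with the same hairpin is therefore not excluded.

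Symbols were matched to GENCODE M21 (21917 of 23478 symbols, all 36 synthetases) for position, exon length and GC content; near copies were sought with blastn 2.17.0 (95% identity over 50 bases). Promoters are RefSeq windows of GRCm38.p6. Values by library were to be given for the largest called changes, 6 cytosolic and 3 mitochondrial genes, between tumor shAsns-1 and tumor shRenilla, likewise between lung and tumor shRenilla, and for called genes of opposite direction. The members and lists were chosen with earlier results of these data known. Figures were drawn with matplotlib 3.10.9.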

Additional observations from a re-analysis of the deposited data

Results flagged for a closer look

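In groups of 4, a library was marked as far where its gap to the nearest other exceeded Dixon's 95% critical value, which chance does in about 1 of 20 groups; 10 of 84 groups looked at had one. Library lung shRenilla B accounted for 6 of the 10. It was low in Sars (106 CPM, others 177 to 190), Farsa (49.1 CPM, others 78.9 to 82.4) and Wars (24.7 CPM, others 48.9 to 49.3), and in the median of the cytosolic class (-0.16, others 0.11 to 0.13). It was high in Nars (593 CPM, others 530 to 534) and Nars2 (77.4 CPM, others 48.1 to 51.6). Its Rn45s level was 266 CPM, against 1440 to 2180 CPM in the other 3.

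The remaining far libraries were single ones. Wars reached 65.3 CPM in tumor shRenilla B (others 44.6 to 48). Hars was 110 CPM in lung shAsns-1 B (others 117 to 118) and 108 CPM in tumor shAsns-1 A (others 92.6 to 95). Eprs was 374 CPM in lung shAsns-2 B (others 389 to 390).

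The effect of the label shAsns-1 against shRenilla differed between lung and tumor in 14 synthetases by the test of the difference itself (edgeR, log2, lung effect minus tumor effect). Among cytosolic genes it was 0.78 for Farsa, 0.75 for Sars, 0.75 for Wars, 0.52 for Tars, 0.50 for Yars, 0.49 for Kars, 0.46 for Aars, 0.45 for Eprs, 0.42 for Hars and 0.41 for Lars. Among mitochondrial genes it was 1.32 for Lars2, 0.64 for Mars2, 0.51 for Yars2 and -0.55 for Nars2.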

How the results depend on the processing

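The count of 14 cytosolic genes lower in tumor shAsns-1 than in tumor shRenilla ranged from 13 to 16 when each library was left out in turn, and with the replicate block it was 14, beside 7 mitochondrial genes. Under the block no count of called synthetases moved by over 1.5 times, and the single calls lost were Hars2 (tumor shAsns-1 against shAsns-2) and Aars (difference between sites). Counts are given as cytosolic and mitochondrial in what follows. With no filter on low counts, which tests more genes, they were 4 mitochondrial in tumor shAsns-1 against shRenilla, 0 cytosolic in lung against tumor shRenilla, 0 and 2 in lung against tumor shAsns-2, and 2 cytosolic in the difference between sites. Limma with library weights gave 2 and 1 in lung shAsns-1 against shRenilla, 2 and 4 in lung shAsns-2 against shRenilla, 5 and 1 between the lung hairpins, and for lung against tumor 4 and 4 (shRenilla), 17 and 4 (shAsns-1) and 4 and 7 (shAsns-2). With libraries lung shAsns-2 D and lung shRenilla B left out they were 1 cytosolic between the lung hairpins, and 13 and 4 in lung against tumor shAsns-1. With only the compared groups lung against tumor gave 0 cytosolic (shRenilla), 15 and 4 (shAsns-1), and 0 and 2 (shAsns-2). Offsets for GC content and length gave 5 cytosolic (lung against tumor shRenilla), 3 and 2 (shAsns-1), and 6 cytosolic in the difference between sites. Thinned counts gave 1 cytosolic in lung against tumor shAsns-2. The number of all genes called under each alternative is not given here, so these counts cannot be set against it. The cause of these moves was not tested.

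Leaving out each library gave 8 to 14 cytosolic genes in tumor shAsns-1 against shAsns-2, 0 to 1 between the lung hairpins, 1 to 3 in lung against tumor shRenilla, 2 to 5 in lung against tumor shAsns-1, 1 to 2 cytosolic and 2 to 4 mitochondrial in lung against tumor shAsns-2, and 5 to 10 in the difference between sites. Genes that changed sign in tumor shAsns-1 against shRenilla were uncalled and near 0: Dars (-0.01 by limma, -0.08 to 0.07 over left-out libraries), Gars (0.01 with GC and length offsets), Farsb (-0.14 to 0.01), Fars2 (-0.01 to 0.18), Iars2 (-0.10 to 0), Aars2 (0.21 thinned, -0.16 to 0.05), Sars2 (-0.32 thinned, -0.01 to 0.06) and Vars2 (0.19 thinned, -0.14 to 0.07). Without Lars2 the mitochondrial median of lung shAsns-1 was -0.09. Depth limits the lowest mitochondrial genes, which had 13 to 29 counts in their shallowest library (Aars2, Sars2, Vars2, Ears2 and Pars2).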
